A study of Mus musculus with 5 samples.

Results

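The data cover 9 genes that megakaryocytes and platelets are known for, among the 21000 protein-coding genes with a curated RefSeq transcript. They are Itga2b, Itgb3, Gp1ba, Gp9 and Gp6 (surface receptors), Pf4, Vwf and Thbs1 (stored and secreted proteins) and Nfe2 (a transcription factor). They were taken by symbol. DNaseI hypersensitive sites (DHSs), where chromatin is accessible enough for the nuclease DNaseI to cut, were attached to a gene in 2 ways. A site was a promoter site when its nearer edge came within 1 kb of any annotated transcription start site (TSS) of the gene. Other sites were assigned when their middle lay inside the gene, or up to 100 kb from its TSS, and the gene was the nearest protein-coding gene. The 9 genes received 89 of 135173 deposited sites, and these fell into 48 of 68846 merged regions, in which sites of different stages that overlap after being set to one width count as 1 region. Wide sites that overlap as deposited can therefore fall into different merged regions. Coordinates are those of mm10 (GRCm38).

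DNaseI-seq was carried out on 5 populations made in vitro from a mouse embryonic stem cell line of strain 129 with a GFP reporter in Brachyury, which all 5 populations carry. Mesoderm (MES) was sorted as Bry:GFP+ Flk1- cells, and hemangioblasts (HB) as Bry:GFP+ cells that had gained Flk1. Cells with Tie2 and cKit on the surface but no CD41 were taken as hemogenic endothelium (HE), cells with CD41 as hematopoietic progenitors (HP), and CD11b+ cells, obtained by further culture of the CD41+ cells, as macrophages (MAC). There was 1 list of sites per stage and no replicate list, so no error or test can be given, and the MAC label names 2 replicates under its single list. No population was sorted for megakaryocytes or platelets. CD41, the surface marker that separates HP from HE, is the product of Itga2b, so for that gene the sort and the stage cannot be told apart.

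The lists held between 17734 sites (HP) and 37456 sites (MAC), with median widths between 600 bp (MAC) and 1200 bp (HE). They give intervals only, so sequencing depth is unknown from them, and a gene with no site in a stage is one with none listed there. As a check of the labels, promoter sites were listed at 5 of 5 mesoderm markers in MES and in HB and at 4 of 5 in HE, so these markers did not separate MES from HB. Promoter sites stood at 6 of 7 endothelial markers in HE and at 7 of 7 macrophage markers in MAC. HP had promoter sites at 3 of 7 endothelial and 1 of 7 macrophage markers. Of 7 erythroid markers HP had 4, MES and HE 3 each and HB and MAC 2 each, so these hardly separated HP from the other lists. A site can come from all cells of a population or from some of them, which cannot be told apart here.

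Megakaryocytes are large cells of the bone marrow and of embryonic blood-forming tissue that shed platelets, the cell fragments that plug damaged vessels. Platelets bind to exposed collagen through GPVI and to von Willebrand factor through the GPIb-IX-V complex, and then bridge to each other through fibrinogen held by the integrin αIIbβ3. Their α-granules release PF4, von Willebrand factor and thrombospondin-1. Transcription factors of the GATA, RUNX and ETS families and NF-E2 are known for their part in megakaryocyte gene control. Several of these genes are also used elsewhere: von Willebrand factor and β3 integrin in endothelium, thrombospondin-1 in many adherent cells, and CD41 on early blood progenitors of the embryo.

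Most of the 9 promoters had a site in HE and HP, and fewer had one before or after. In MES, 2 of 9 genes had a promoter site, beside 57.2% of all protein-coding genes. In HB the count was 4 of 9, beside 58.9%. It was 8 of 9 in HE, where 61.7% of all genes had one, and 8 of 9 in HP, where the share of all genes was 50.1%. In MAC it was back at 4 of 9, beside 50.2%. The 9 genes were therefore below the share of all genes in MES and HB, slightly below it in MAC (44.4% beside 50.2%) and above it in HE and HP. HP, the shortest list, held as many of these promoters as HE, whose list has 33305 sites, but with curated TSSs only it held 6 against 8, since the HP sites of Gp9 and Vwf lie at other TSSs than their HE sites.

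Promoters with many CpG dinucleotides are known to be open in most cell types. Only curated TSSs were scored for CpG. A TSS counted as CpG-rich where G and C made up a share of 0.5 or more of the 500 bp around it. In addition, CpG had to occur at 0.6 or more of the frequency its base composition predicts. Itgb3 (67.6% GC, ratio 0.793) and Thbs1 (62.8% GC, ratio 0.660) were CpG-rich, and these 2 were the genes with a promoter site in all 5 lists. The other 7 genes were compared with the 9524 protein-coding genes without a CpG-rich TSS, a split chosen after the data had been seen. None of the 7 had a promoter site in MES, where 21.0% of the comparison genes did. In HB 2 of 7 had one, beside 22.0%. The count was 6 of 7 in HE against 26.1% and 6 of 7 in HP against 16.0%. In MAC 2 of 7 had one, against 18.7%.

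**Figure D1:**
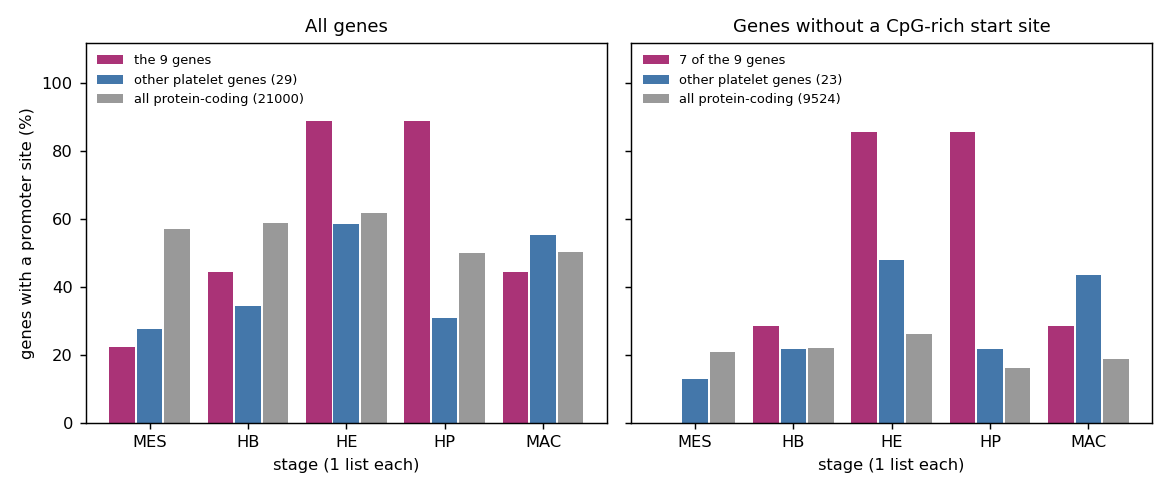
Share of genes with a DNaseI site within 1 kb of a TSS (y axis, percent) in each stage (x axis, 1 list each), for the 9 genes, for 29 other megakaryocyte and platelet genes and for all protein-coding genes; the right panel keeps only genes without a CpG-rich TSS. The 9 genes stand above both other groups in HE and HP, with 8 of 9 genes (left) and 6 of 7 genes (right).

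Taken gene by gene, the promoters fell into 6 patterns over the 5 stages. Itga2b, Gp9 and Vwf had a site in HE and HP only, a pattern held by 71 of all protein-coding genes (0.338%). Gp1ba had one in HB, HE and HP, as did 84 genes in all (0.400%). Pf4 was listed in HE, HP and MAC, a pattern of 92 genes (0.438%), and Nfe2 in every stage but MES, a pattern of 115 genes (0.548%). With curated TSSs only, Gp9 and Vwf had a site in HE alone, and HP then had 6 of the 9 genes, beside 49.0% of all genes (4 of 7 beside 14.0% among genes without a CpG-rich TSS). Itgb3 and Thbs1 shared the pattern of all 5 stages with 9106 genes (43.4%). Gp6 had no promoter site in any list, like 6798 genes (32.4%).

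**Figure D2:**
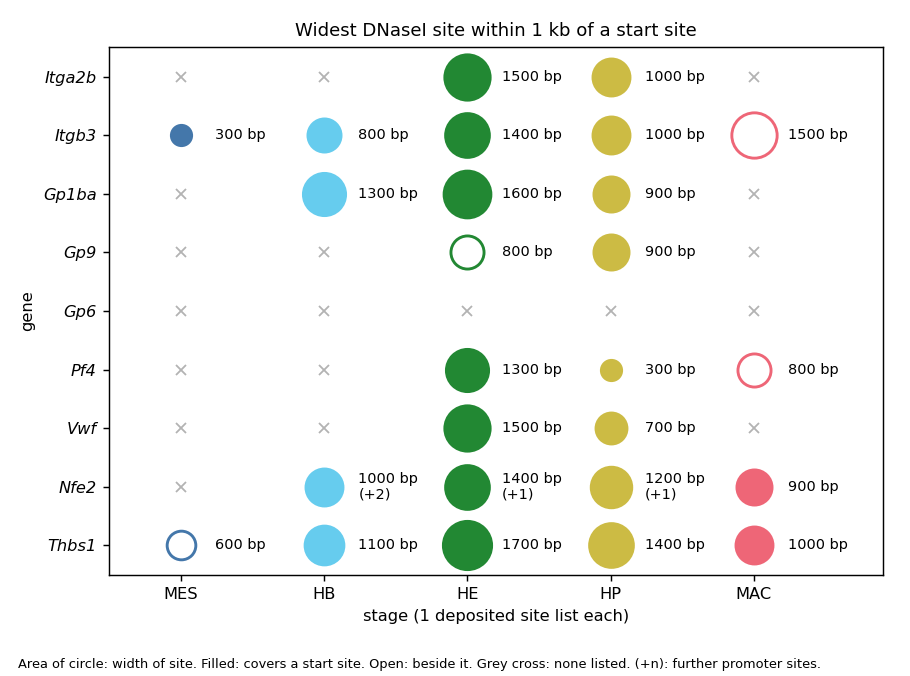
Widest promoter site of each gene (rows) in each stage (columns, 1 list each), with circle area and label giving its width in bp; filled circles cover a TSS, open circles lie beside it within 1 kb, and crosses mark that none was listed. The HE and HP columns are filled for every gene but Gp6 (no site) and Gp9 (open circle in HE), while MES shows only Itgb3 at 300 bp and Thbs1 at 600 bp.

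Itga2b encodes the αIIb chain of the platelet fibrinogen receptor, which is CD41. The gene runs over chr11:102453297-102469883 on the minus strand and has 1 annotated TSS. No promoter site was listed in MES, HB or MAC. The HE site covered the TSS over 1500 bp (chr11:102469311-102470810) and was at least as wide as 74.8% of the sites of its list. The HP site, chr11:102469664-102470663, was 1000 bp wide and at least as wide as 67.0% of its list. The promoter was thus listed in the CD41- HE cells as well as in the CD41+ HP cells. In the stages without it the nearest site lay inside the gene, with its edge 2.17 kb (MES), 2.08 kb (HB) and 2.12 kb (MAC) downstream of the TSS. That site, in intron 4 and 2.67 kb from the TSS, was listed in all 5 stages at widths of 900 bp (MES), 1000 bp (HB), 800 bp (HE), 900 bp (HP) and 900 bp (MAC). A site listed in every stage and one listed in HE and HP thus sit within a few kilobases of each other.

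The promoter sequences of the 5 genes that the RefSeq promoter table of GRCm38.p6 holds (Itga2b, Gp1ba, Gp9, Gp6 and Pf4) are shown as those of the 7 genes without a CpG-rich TSS for which the table has an entry. Each is the 250 bases before the TSS, 5′ to 3′ on the strand of the gene, from the C57BL/6J reference and not from the strain 129 cells. Capitals mark exact matches on either strand. The letters searched were AGATAA for the GATA factors, with the shorter core GATAA contained in it, and TGTGGT for the RUNX factors. For the ETS factors they were AGGAAG, for NF-E2 as well as AP-1 they were TGAGTCA, for an E-box CAGCTG, and for the TEAD factors CATTCC. Matches to different motifs may overlap.
Itga2b promoter, chr11:102469884-102470133, minus strand: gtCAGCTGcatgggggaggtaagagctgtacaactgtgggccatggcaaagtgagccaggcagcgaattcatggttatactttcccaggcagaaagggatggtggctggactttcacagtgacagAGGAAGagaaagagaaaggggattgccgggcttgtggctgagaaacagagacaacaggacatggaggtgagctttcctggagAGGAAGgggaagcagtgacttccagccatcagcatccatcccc
Gp1ba promoter, chr11:70638872-70639121, plus strand: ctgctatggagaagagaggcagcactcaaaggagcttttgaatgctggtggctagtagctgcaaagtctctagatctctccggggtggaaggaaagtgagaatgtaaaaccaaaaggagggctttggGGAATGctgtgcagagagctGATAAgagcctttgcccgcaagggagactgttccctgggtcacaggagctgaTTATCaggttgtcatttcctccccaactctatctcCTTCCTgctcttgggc
Gp9 promoter, chr6:87777820-87778069, plus strand: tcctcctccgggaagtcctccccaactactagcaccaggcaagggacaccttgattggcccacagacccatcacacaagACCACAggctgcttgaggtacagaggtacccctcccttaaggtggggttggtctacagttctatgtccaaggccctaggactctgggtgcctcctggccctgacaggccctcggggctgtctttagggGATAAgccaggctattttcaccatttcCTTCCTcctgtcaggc
Pf4 promoter, chr5:90772185-90772434, plus strand: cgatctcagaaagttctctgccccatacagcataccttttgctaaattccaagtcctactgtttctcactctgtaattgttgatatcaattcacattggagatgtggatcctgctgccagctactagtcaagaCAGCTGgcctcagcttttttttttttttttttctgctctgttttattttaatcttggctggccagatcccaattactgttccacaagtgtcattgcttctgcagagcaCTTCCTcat
Gp6 promoter, chr7:4397745-4397994, minus strand: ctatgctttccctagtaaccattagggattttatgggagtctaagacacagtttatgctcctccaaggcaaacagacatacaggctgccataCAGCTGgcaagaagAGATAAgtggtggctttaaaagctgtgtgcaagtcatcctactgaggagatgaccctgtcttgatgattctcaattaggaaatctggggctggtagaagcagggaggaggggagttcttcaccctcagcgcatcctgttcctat
The ETS letters stood in the windows of Itga2b, Gp1ba, Gp9 and Pf4 and not in that of Gp6, and 29.5% of all 32851 promoters of the table hold them in a window of this length. No site of any stage covers the printed window of Gp9. In Gp1ba and Gp9 the ETS match began at the same place, position -16 from the TSS, and in Pf4 at -9. Itga2b had ETS matches at -125 and -43 and an E-box at -248. The letters AGATAA were found in 1 of the 5, Gp6 (at -144), beside 9.99% of all promoters, and the core GATAA in Gp1ba, Gp9 and Gp6, beside 22.6%. RUNX letters were present in Gp9 only (14.0% of all promoters), TEAD letters in Gp1ba only (12.6%), the E-box in Itga2b, Pf4 and Gp6 (13.0%), and the letters TGAGTCA in none of the 5 (4.46%). A match is a description of the letters and not a measured binding site.

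Further sites of Itga2b were few. A region 17.2 kb upstream, in intron 7 of the neighbouring gene Gpatch8, was listed in MES (400 bp), HB (500 bp) and HP (600 bp). Coding exon 17, 9.12 kb downstream, held a site of 600 bp in HP only. Itga2b thus had 4 sites in HP, a number that only 2.43% of protein-coding genes reached or passed in that list, against 2 sites in each of MES, HB and HE and 1 in MAC.

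Itgb3 encodes the β3 chain, the partner of αIIb on platelets and of αV on other cells. The gene spans chr11:104608000-104670476 on the plus strand, and it is the gene with the most sites of the 9, in 13 merged regions. Its CpG-rich promoter had a site in each list, with differing extents. The HB site (800 bp), the HE site (1400 bp) and the HP site (1000 bp) covered both annotated TSSs. The MES site (300 bp, chr11:104608017-104608316) covered the predicted one of the pair and began just downstream of the curated one. The MAC site (chr11:104608267-104609766) was 1500 bp wide, at least as wide as 99.4% of the MAC list, yet it covered no TSS and began 69 bp downstream of one. Set to one width it formed a region of its own in intron 1, although as deposited it overlapped the sites of the other 4 stages. The MES site was narrow for its list, at least as wide as 10.5% of it.

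Away from the promoter, Itgb3 showed shared regions and single-stage ones. A region 11.4 kb upstream was listed in HE (1100 bp), HP (700 bp) and MAC (600 bp). In intron 1, a region 11.0 kb downstream of the TSS was listed in HE (1100 bp) and HP (900 bp), and one 6.31 kb downstream in HP (500 bp) and MAC (300 bp). Intron 2 held a pair of adjacent merged regions, at 17.5 kb in HE (1500 bp) and MAC (200 bp) and at 18.2 kb in HB (900 bp) and HP (600 bp). They are separate only after the sites were set to one width, since the HE site as deposited overlaps both the HB and the HP site. All 5 of these regions were listed in HE, HP or both. Besides them, 4 intronic regions between 22.5 and 39.7 kb were listed in MAC only and 2 upstream regions, at 9.04 and 2.83 kb, in MES only. Itgb3 had 3 sites in the MES list, 2 in HB, 4 in HE, 5 in HP, and with 8 the most in MAC. The 5 sites in HP were a number that 1.08% of all genes reached or passed, and the 8 in MAC one that 2.93% did.

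A set of distal regions is shown by the central 300 bases of the merged region, as 6 of the 13 regions outside promoters with an HP site, picked as examples after their values were seen. Letters are read on the strand of the gene, and capitals mark the same motifs as above.
Itgb3 11.4 kb upstream, chr11:104596437-104596736, listed in HE, HP and MAC: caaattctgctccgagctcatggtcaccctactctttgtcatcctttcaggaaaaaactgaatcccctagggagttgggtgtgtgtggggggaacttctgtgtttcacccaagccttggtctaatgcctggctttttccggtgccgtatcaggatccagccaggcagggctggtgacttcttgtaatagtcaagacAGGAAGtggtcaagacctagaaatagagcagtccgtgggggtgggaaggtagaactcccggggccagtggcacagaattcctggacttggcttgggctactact
Itgb3 11.0 kb downstream, chr11:104618837-104619136, listed in HE and HP: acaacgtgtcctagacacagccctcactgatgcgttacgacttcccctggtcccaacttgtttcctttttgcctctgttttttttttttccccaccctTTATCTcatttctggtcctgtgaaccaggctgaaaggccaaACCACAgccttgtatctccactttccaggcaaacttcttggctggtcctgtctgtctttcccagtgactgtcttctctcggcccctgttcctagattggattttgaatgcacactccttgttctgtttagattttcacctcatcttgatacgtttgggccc
Itgb3 18.2 kb downstream, chr11:104626060-104626359, listed in HB and HP, and lying within the wide HE site of the adjacent region: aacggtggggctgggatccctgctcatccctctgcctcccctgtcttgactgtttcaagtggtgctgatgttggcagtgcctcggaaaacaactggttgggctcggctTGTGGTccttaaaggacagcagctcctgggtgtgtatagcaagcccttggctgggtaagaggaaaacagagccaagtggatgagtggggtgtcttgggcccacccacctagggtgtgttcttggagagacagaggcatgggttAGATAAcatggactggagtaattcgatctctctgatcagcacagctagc
Thbs1 45.3 kb upstream, chr2:118066394-118066693, listed in HE and HP: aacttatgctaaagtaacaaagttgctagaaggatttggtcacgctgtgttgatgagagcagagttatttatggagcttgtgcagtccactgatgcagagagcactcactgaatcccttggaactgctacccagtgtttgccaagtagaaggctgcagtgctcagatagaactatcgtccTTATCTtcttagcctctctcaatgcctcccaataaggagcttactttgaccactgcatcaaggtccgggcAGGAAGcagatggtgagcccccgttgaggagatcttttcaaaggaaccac
Vwf 47.4 kb downstream, chr6:125600194-125600493, listed in HB, HE and HP: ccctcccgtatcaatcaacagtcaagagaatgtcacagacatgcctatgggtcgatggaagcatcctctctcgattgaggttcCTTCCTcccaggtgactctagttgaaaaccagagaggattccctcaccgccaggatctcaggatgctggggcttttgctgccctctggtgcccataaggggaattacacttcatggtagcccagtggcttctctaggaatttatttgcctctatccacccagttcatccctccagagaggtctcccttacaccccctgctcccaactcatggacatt
Gp9 14.4 kb upstream, chr6:87763506-87763805, listed in HP: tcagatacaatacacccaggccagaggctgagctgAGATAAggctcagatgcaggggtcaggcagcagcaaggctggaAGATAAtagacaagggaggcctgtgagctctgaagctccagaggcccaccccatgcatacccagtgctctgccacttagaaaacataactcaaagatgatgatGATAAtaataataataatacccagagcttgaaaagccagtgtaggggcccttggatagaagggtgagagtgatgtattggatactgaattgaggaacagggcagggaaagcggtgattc
The letters AGATAA stand 2 times in the window of Gp9, where a further GATAA core follows, and the windows of Itgb3 at 11.0 and 18.2 kb held the RUNX letters. As these windows were picked, the motifs are counted over all 48 regions further on.

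Gp1ba encodes the chain of the GPIb-IX-V complex that binds von Willebrand factor. It is a short gene at chr11:70639102-70643986. Its promoter site covered both annotated TSSs in HB (1300 bp, chr11:70638507-70639806), HE (1600 bp, chr11:70638211-70639810) and HP (900 bp, chr11:70638564-70639463). These sites were at least as wide as 87.8%, 82.6% and 57.5% of the sites in their lists, so the earliest was the widest relative to its list. In MES the nearest site lay 7.39 kb away and nearer to Rnf167. MAC had a single site of 500 bp, centred 6.21 kb upstream of the TSS and listed in no other stage. Gp1ba was 1 of 2 genes without a CpG-rich TSS, with Nfe2, whose promoter was listed as early as HB.

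Gp9 encodes the small GPIX chain of the same complex. Its sites were listed in HE and HP alone, and they did not coincide. The HE site (800 bp, chr6:87778509-87779308) lay in intron 1 with its edge 439 bp downstream of the curated TSS and covered no annotated TSS. It was narrow, at least as wide as 24.1% of the HE list. The HP site (900 bp, chr6:87775657-87776556) covered a TSS known only from predicted transcripts, and its middle lay 1.97 kb upstream of the curated one. Neither of them reached the curated TSS whose promoter is printed above. A second HP site of 400 bp lay 14.4 kb upstream. In the other lists the nearest site was 33.4 kb (MES), 19.7 kb (HB) and 27.9 kb (MAC) away and nearer to Rab43.

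Gp6 encodes GPVI, the collagen receptor. The gene, chr7:4362853-4397851 on the minus strand, had no site in MES, HB, HE or HP, and the nearest site in those 4 lists lay between 29.2 and 29.3 kb upstream, nearer to Rdh13. Only MAC had sites in the gene, in intron 4 (700 bp, 16.0 kb from the TSS) and in intron 6 (200 bp, 27.0 kb from the TSS). Gp6 is thus the exception among the 9 genes in HE and HP. The intron 4 site is shown as the wider of the pair, on the strand of the gene and with the same motifs in capitals.
Gp6 16.0 kb downstream, chr7:4381609-4381908, listed in MAC: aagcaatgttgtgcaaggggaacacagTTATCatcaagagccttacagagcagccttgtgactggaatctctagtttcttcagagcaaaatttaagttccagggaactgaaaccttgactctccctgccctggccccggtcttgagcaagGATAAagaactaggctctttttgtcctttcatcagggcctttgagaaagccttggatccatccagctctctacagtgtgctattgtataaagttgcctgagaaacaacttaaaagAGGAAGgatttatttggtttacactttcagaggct
It held an ETS match and the GATAA core on both strands, but not the longer letters AGATAA.

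Pf4 encodes platelet factor 4, a chemokine of the α-granules. It is a gene of 949 bp at chr5:90772435-90773383. MES and HB had no site near it, with the nearest ones 132 kb and 119 kb from the TSS. The HE site (chr5:90771726-90773025) was 1300 bp wide and covered the TSS, and the HP site (chr5:90772293-90772592) covered it over only 300 bp, at least as wide as just 3.82% of the HP list. The MAC site was shifted upstream: its 800 bp (chr5:90771146-90771945) ended 490 bp before the TSS, clear of the HP site but overlapping the start of the HE site, and formed a merged region of its own. Its neighbour Ppbp, another platelet chemokine with its TSS 3.92 kb away, had no promoter site and no assigned site in any list.

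**Figure D3:**
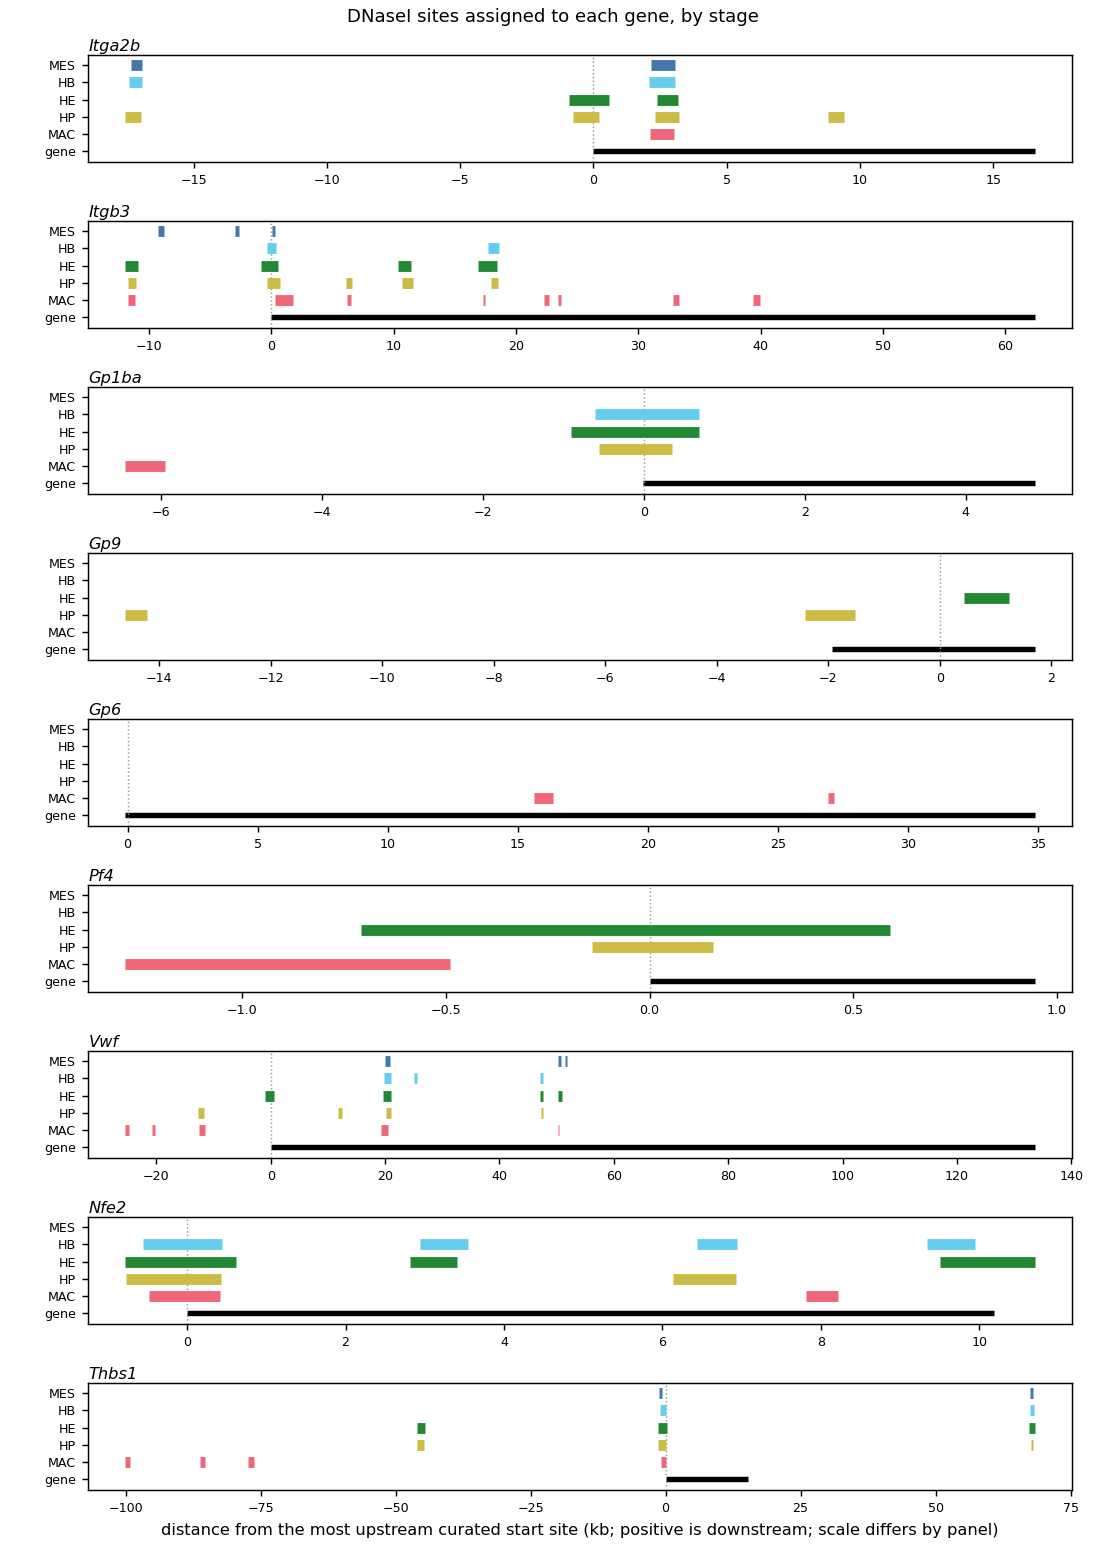
Deposited sites assigned to each of the 9 genes (panels), by stage (rows), drawn to scale against distance from the most upstream curated TSS in kb (x axis, positive downstream, scale differing by panel), with the gene as a black bar. The Pf4 site of MAC ends 490 bp before the TSS that the HE and HP sites cover, and Gp6 has sites in MAC only.

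Vwf encodes von Willebrand factor, the large adhesive protein of platelets and endothelial cells. The gene covers 133732 bp at chr6:125552948-125686679. Its HE promoter site was 1500 bp wide and covered the curated TSS (chr6:125552009-125553508). The HP site counted as a promoter site lay at another TSS, known from a predicted transcript in intron 3 (700 bp, chr6:125564757-125565456), and its middle lay 12.2 kb downstream of the curated TSS. No HP site was listed at the curated TSS. One intron 6 region, 20.3 kb from the TSS, was listed in all 5 stages with widths of 1000 bp (MES), 1200 bp (HB), 1500 bp (HE), 1000 bp (HP) and 1300 bp (MAC), the last at least as wide as 98.0% of its list. Another, in intron 12 at 47.4 kb, was listed in HB (500 bp), HE (600 bp) and HP (400 bp). Yet another, over coding exon 14 at 50.5 kb, was listed in MES (500 bp), HE (800 bp) and MAC (200 bp). Upstream, a region at 12.1 kb was listed in HP (1000 bp) and MAC (1100 bp), and 2 at 20.5 and 25.1 kb in MAC only. Inside the gene, 1 region at 25.3 kb was listed in HB only and 1 at 51.6 kb in MES only. Site counts for Vwf were 3, 3, 4, 4 and 5 from MES to MAC.

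Thbs1 encodes thrombospondin-1, an adhesive glycoprotein that platelets release and many other cells make. The gene is at chr2:118111876-118127133. It had a promoter site in all stages: MES (600 bp, chr2:118110691-118111290), HB (1100 bp), HE (1700 bp), HP (1400 bp) and MAC (1000 bp). The MES site stopped 586 bp short of the TSS, while the other 4 covered it. Relative to the lists, the sites were at least as wide as 41.1% (MES), 69.1% (HB), 89.1% (HE), 96.8% (HP) and 90.4% (MAC) of all sites. The region 45.3 kb upstream had sites in HE (1600 bp) and HP (1200 bp) only. A region 67.9 kb downstream, in intron 10 of Fsip1, was listed in MES (600 bp), HB (800 bp), HE (1100 bp) and HP (400 bp) but not in MAC. In turn, 3 regions between 76.8 and 99.7 kb upstream were listed in MAC only.

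Nfe2 encodes the p45 subunit of NF-E2, the factor that megakaryocytes need to release platelets. It lies at chr15:103248212-103258403 on the minus strand and has 9 annotated TSSs, and sites were listed in 3 promoter regions. No site was listed in MES. The most upstream promoter had sites in HB (1000 bp, chr15:103257961-103258960), HE (1400 bp), HP (1200 bp) and MAC (900 bp), with the HP and MAC ones at least as wide as 87.3% and 84.7% of their lists. The middle promoter was listed in HB (600 bp) and HE (600 bp), and the one nearest to the coding part in HB (500 bp, chr15:103251461-103251960) and HP (800 bp, chr15:103251475-103252274). HB was thus the list with sites at all 3 promoters. Near the end of the gene, HE had a site of 1200 bp and HB one of 600 bp that overlap as deposited but did not fall into 1 merged region, and MAC had a site of 400 bp in intron 2. In total Nfe2 had 4 sites in HB, a number that 5.45% of all genes reached or passed, against 3 in HE, 2 in HP and 2 in MAC.

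In total 10 MES sites, 14 HB sites, 19 HE sites, 22 HP sites and 24 MAC sites were assigned to the 9 genes. When every list was held to its widest sites, as many as the HP list holds, the counts were 7, 8, 11, 22 and 14, so that HP and no longer MAC had the most. The HP list stays whole under this limit while the others lose sites, and no value for all genes is given for it. With all sites kept, the median per gene was 0 in MES and 2 in each of the other stages, while over all protein-coding genes it was 1 in every stage. Counted over the stages, the 9 genes had a median of 4 merged regions, from 2 (Gp1ba, Gp6 and Pf4) to 13 (Itgb3), beside 2 over all genes. Of the 48 regions, 21 had their middle between protein-coding genes, 22 in introns, 3 in coding exons and 2 in untranslated exons. Their promoter sites had a median width of 450 bp (MES, n = 2 sites), 900 bp (HB, n = 6), 1400 bp (HE, n = 9), 900 bp (HP, n = 9) and 950 bp (MAC, n = 4), where all promoter sites of those lists had medians of 1000, 1200, 1600, 1100 and 800 bp. By the median, the promoter sites of these genes were therefore narrower than promoter sites in general in every list but MAC.

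Read by stage, the 34 regions of the 9 genes more than 1 kb from a TSS had an HP share above that of all such regions. In HP 13 of 34 (38.2%) held an HP site, beside 14.9% of the 51810 regions away from promoters in the whole set. In HE the share was 29.4%, beside 39.3%, and in MAC 58.8%, beside 51.9%. MES and HB stood at 23.5% each, beside 19.7% and 24.4%. Of the 14 regions at promoters, 9 were listed in HE (64.3%) and 9 in HP, beside 76.0% and 58.7% of all 17036 promoter regions, so the share was below that of all promoter regions in HE and close to it in HP. MES had 2 of the 14, HB 6 and MAC 4, beside 68.9%, 70.9% and 61.8%. Regions of 1 gene share a locus and are not replicates of each other, so these shares carry no test. By pattern, 15 of 48 regions were listed in MAC only (31.2%, beside 31.0% of all regions), so the MAC-only share was near that of the whole set. The pattern of HE and HP held 4 regions (8.33%, beside 2.15%), namely the promoters of Itga2b and Pf4, Itgb3 at 11.0 kb and Thbs1 at 45.3 kb.

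Within the central 300 bp of the 48 regions, the letters AGATAA were found in 11 (22.9%), beside 15.1% of all merged regions. They stood in 10 of the 28 regions listed in HE or HP and in 1 of the 15 listed in MAC only, where the shares of all regions of those kinds were 16.0% and 11.7%. RUNX letters were in 14 regions (29.2%, beside 22.6%), and here the share was lower in HE or HP (7 of 28, beside 19.6%) than in MAC only (7 of 15, beside 29.5%). ETS letters were in 26 (54.2%, beside 47.1%), at similar shares in both kinds (16 of 28 beside 44.4% and 9 of 15 beside 57.1%). Of the rest, the E-box was in 15 (31.2%, beside 21.3%) and TEAD letters in 11 (22.9%, beside 17.5%). The NF-E2 and AP-1 letters TGAGTCA were in 3 (6.25%, beside 13.8%). With the shorter core GATAA, an alternative chosen after seeing the data, 22 of the 48 regions matched (45.8%, beside 29.5%), 15 of 28 in HE or HP and 6 of 15 in MAC only, beside 30.1% and 26.4% of all regions of those kinds. Over the central 500 bp the letters AGATAA stood in 11 of the 28 and in 3 of the 15, beside 23.3% and 20.7% of all regions of those kinds. For GATA, the contrast between these kinds of region was thus larger with the longer letters in the shorter window.

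To see whether other genes of the lineage follow the same stages, 29 further megakaryocyte and platelet genes were listed by their function. Both lists were chosen with earlier results of these data known. Promoter sites were listed at 8 of the 29 in MES and at 10 in HB, then at 17 in HE, 9 in HP and 16 in MAC. As shares these are 27.6%, 34.5%, 58.6%, 31.0% and 55.2%, beside 57.2%, 58.9%, 61.7%, 50.1% and 50.2% of all genes, so the counts in HE and MAC were near the share of all genes and the others below it. With the widest sites only, equally many per list, the counts in HE, HP and MAC were 14, 9 and 7, so that MAC fell below HP. That setting keeps the HP list whole and shortens the others. No share of all genes is given for it, so the fall cannot be read as particular to these genes. The 9 genes had 8 in both HE and HP, or 8 and 6 with curated TSSs only, and the share of all genes was also lower in HP than in HE. A site in HE and HP but not in MES was found at 4 of the 29, against 6 of the 9 and 1.72% of all genes. A site in HP but not MAC was found at 1 of the 29, Tubb1, and at 4 of the 9 (5.30% of all genes), and a site in MAC but not HP at 8 of the 29 and at none of the 9 (5.36% of all genes). Gp9 and Vwf are among the 6 and among the 4, and with curated TSSs only they drop out of both. The 29 were not recounted with curated TSSs. Among the 23 listed genes without a CpG-rich TSS, MES had sites at 3, HB at 5, HE at 11, HP at 5 and MAC at 10. All genes of that kind had 21.0%, 22.0%, 26.1%, 16.0% and 18.7%, so HE and MAC stood above the share of all such genes, HB and HP near it and MES below.

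Genes with the pattern of Pf4 were P2rx1, an ATP-gated channel of platelets, F2rl3, the thrombin receptor PAR4, and Fermt3, the kindlin-3 that activates integrins. Tbxas1, thromboxane synthase, shared the pattern of Nfe2. No gene of the 29 had the pattern of Itga2b, Gp9 and Vwf or that of Gp1ba. Zfpm1 (FOG-1, the GATA partner), P2ry1, Nbeal2 and Rasgrp2 were listed in all 5 stages, as Itgb3 and Thbs1 were. Tubb1, the β1-tubulin of platelets, was listed in HP only, a pattern of 35 genes (0.167%). Gp6 was joined by 8 of the 29 genes in having no promoter site in any list: Gp1bb, Gata1, Ppbp, Selp, Clec1b, Treml1, Mmrn1 and Bin2. These include the remaining GPIb chain (Gp1bb), the podoplanin receptor CLEC-2 (Clec1b) and P-selectin (Selp). The genes of the GPIb-IX-V complex therefore differed, with Gp1ba listed in 3 stages, Gp9 in HE and HP, Gp5 in HE only and Gp1bb in none.

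**Figure D4:**
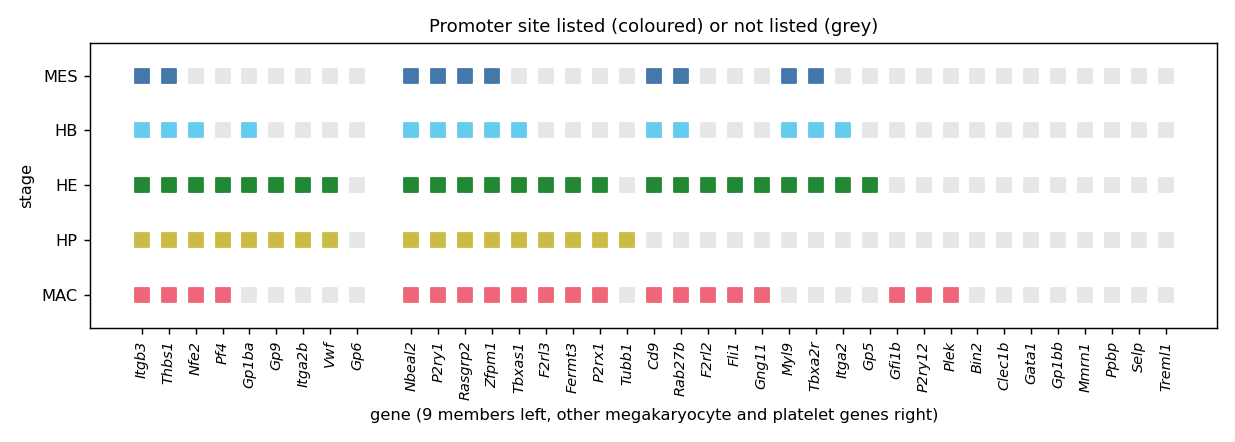
Promoter site listed (coloured) or not listed (grey) in each stage (rows, 1 list each) for the 9 genes (left) and 29 other megakaryocyte and platelet genes (right), sorted by pattern. Only Tubb1 among the 29 has a site in HP and none in MAC, as do Itga2b, Gp1ba, Gp9 and Vwf among the 9. The HP sites of Gp9 and Vwf lie at TSSs known only from predicted transcripts.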

How the data were processed

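DNaseI-seq libraries of 5 cell populations were analysed, 1 list of sites each. The study's methods state that reads were trimmed (CutAdapt), aligned to mm10 (Bowtie) and freed of duplicates (Picard), and that DFilter called the sites in 100 bp bins. The processing notes also name HOMER. Versions are not given in the sources used here. The files the authors deposited give the start and end of each site, with no score, height or read count. How the MAC replicates were joined is not given in the sources used here.

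TSSs came from RefSeq GRCm38.p6, as annotated for 21000 protein-coding genes. Sites were set to 500 bp and merged where they overlapped by 125 bp or more, as in the study, but around their middle, since the deposited intervals give no summit. A region with a site of a stage was called open there. Named regions were those at a TSS and, for each gene, up to 6 others open in most stages, with all remaining ones as counts. The 9 genes, the gene lists and the motifs were chosen with earlier results of these data known. 1 gene of the comparison list is not reported here. With 1 list per stage no test was run. Assignment and merging were tested on simulated sites. Python 3.11.15, pandas 2.3.3, numpy 2.4.6 and matplotlib 3.10.9 were used. Alternatives were the reach to the TSS, curated TSSs, wider sites, other merging and a longer motif window.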

Additional observations from a re-analysis of the deposited data

How the results depend on the processing

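Of 87 recomputed counts, 72 stayed within 1.5 times the value reported and 15 did not. That limit is wide for counts of at most 9 genes, since HP with 6 genes in place of 8 lies within it. Many of the 87 recount the same sites, so they are not separate checks. Of the 9 genes, the count with a promoter site in MES was 1 in place of 2 with a reach of 100 bp and with the widest sites only (as many per list as the shortest list holds), and 0 when sites narrower than their list's median were left out. Counts in HE stayed at 7 or 8 and in HP at 6 to 8 under every alternative. With curated TSSs only, Gp9 and Vwf lost their HP site. Gp9 lost its HE site with a reach of 100 bp and with wider sites, and Pf4 its MAC site with a reach of 100 bp. Without sites narrower than the median, Pf4 and Vwf lost their HP site. Without those narrower sites, the sites assigned to the 9 genes numbered 2, 6, 11, 11 and 15 from MES to MAC, and the widest sites 7, 8, 11, 22 and 14, which puts HP and not MAC first. The other platelet genes had 7 MAC promoters with the widest sites, below their 9 in HP. The widest-sites setting keeps the HP list whole and shortens the others, and no share of all genes is given under it. A motif window of 500 bp gave 22 regions with RUNX letters (45.8%, beside 33.2% of all regions) and 6 with NF-E2 and AP-1 letters (12.5%, beside 17.9%), and the shorter GATA core gave 22. Among the alternatives, some keep fewer sites or a shorter reach, and others read more bases or ask for fewer letters. Why the 15 counts moved was not tested. No paired analysis was possible because there is 1 list per stage, and no replicate could be left out. The lists give no depth, which limits what an unlisted site can show. The study's supplement states that it reports aligned read numbers, which were not used here.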

Other observations

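Of the 18 nearest protein-coding neighbours, 1 on either side of each gene, 8 had a promoter site in all 5 lists (beside 43.4% of all genes), 3 had none in any list (beside 32.4%), and none had a site in HE and HP but not in MES, a combination that 1.72% of all genes have. Myl4 and Fsip1, listed in all 5, had the pattern of their neighbours Itgb3 and Thbs1, and Ncr1, listed in none, that of Gp6. Cd9, which encodes a platelet tetraspanin and has its TSS 58.2 kb from that of Vwf, was listed in every stage but HP. These are values for neighbouring genes and were not tested.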
